A study of Homo sapiens with 6 samples.

Results

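The EGF receptor family genes examined here were 10 genes: the receptors EGFR, ERBB2 and ERBB3, the ligands AREG, EREG, HBEGF, TGFA, BTC and NRG1, and the receptor inhibitor ERRFI1. They were taken by symbol from the 58735 genes of the count table, and all 10 were listed there. RNA-Seq was performed in BT549 cells, an established triple-negative breast cancer line that the study uses as a basal-like model. There were 3 libraries from cells given the solvent DMSO and 3 from cells given AS1842856, a small molecule that binds FOXO1 and blocks its direct binding to DNA. Both groups were harvested after 48 h, both carried replicates A, B and C, and neither carried a transgene or an edited allele. The labels give an AS1842856 dose of 200 nM, the study's methods give another, and the difference was not resolved here. The study calls the 3 libraries of a group biological replicates, and all came from this 1 line. The DMSO libraries held 22050288, 15289500 and 18580205 counts, and the AS1842856 libraries 16643243, 22981832 and 17888328 (replicates A, B and C).

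The family consists of receptor tyrosine kinases that pair when a ligand binds. EGFR is bound by AREG, EREG, HBEGF, TGFA and BTC, of which HBEGF, EREG and BTC also bind ERBB4. NRG1 binds ERBB3 and ERBB4, ERBB2 has no known ligand and serves as a partner, and ERBB3 has very weak kinase activity of its own. The ligands are made as membrane proteins and released by metalloproteases. ERRFI1 (MIG6) is a cytoplasmic protein that binds the EGFR kinase domain, blocks it and promotes receptor degradation. EGFR is often expressed strongly in basal-like breast cancer, whereas ERBB2 is not amplified in triple-negative lines.

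The libraries had the mesenchymal profile known for BT549. All 8 mesenchymal markers examined were expressed, with summed levels from 5192 to 5390 CPM in DMSO and from 4290 to 4337 CPM with AS1842856, VIM being the most abundant. The list moved both ways, with 2 markers higher, among them FN1 from 450 ± 32.4 to 981 ± 21.8 CPM, and 6 lower, among them AXL from 423 ± 6.02 to 135 ± 6.13 CPM (SD over 3 libraries). Levels in CPM are counts scaled to library size with TMM factors. Estrogen receptor ESR1, E-cadherin CDH1 and CLDN3 had at most 3 counts in every library, and so did the basal keratins KRT5, KRT14 and KRT6A. The 12 luminal markers summed to 130 to 135 CPM in DMSO and to 75.9 to 83.9 CPM with AS1842856, GATA3 being the most abundant, and the 7 basal markers to 12.05 to 13.8 CPM and 4.77 to 5.47 CPM, LAMA3 being the most abundant. KRT8 fell from 40.9 ± 1.79 to 4.15 ± 0.301 CPM and KRT18 from 33.9 ± 3.47 to 3.45 ± 0.0744 CPM, whereas KRT19 rose from 3.002 ± 0.800 to 9.40 ± 0.549 CPM and GATA3 from 50.9 ± 2.47 to 61.7 ± 4.23 CPM, so that 2 luminal markers were higher and 4 lower of the 6 tested. The basal keratin KRT17 was also higher, with 1, 2 and 5 counts in DMSO and 18, 30 and 22 with AS1842856, beside 2 basal markers that were lower of the 4 tested. The 6 leukocyte markers summed to 1.18 to 2.15 CPM in DMSO and 3.55 to 4.71 CPM with AS1842856, mostly PTPRC, with CD3E, LYZ and HBB at or under 3 counts throughout. All 4 endothelial markers were at or under 3 counts in every library. The part of these marker changes in the results below was not tested, and in bulk RNA fewer cells of a kind and less RNA per cell cannot be told apart.

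Enough counts for a test were present for 6 of the 10 genes. The log2 fold change of AS1842856 over DMSO (log2FC) and its standard error (SE) came from edgeR's quasi-likelihood test, with Benjamini-Hochberg adjusted p over all 14338 genes tested. NRG1 and HBEGF rose, EGFR, ERBB2 and ERRFI1 fell, and ERBB3 did not pass the test. These 5 of 6 stand beside a background of 56.0% of all genes tested, with 27.6% higher and 28.4% lower, so a call is common in this comparison and the sizes and levels carry more than the count. The groups did not overlap for any of the 6, 2 higher and 4 lower, beside a background of 59.9% of all genes, 29.5% higher and 30.3% lower. The other 4 genes, all ligands, had too few counts to be tested. For a single gene, permuting 3 and 3 libraries exactly and two-sided gives no p below 0.1.

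**Figure D1:**
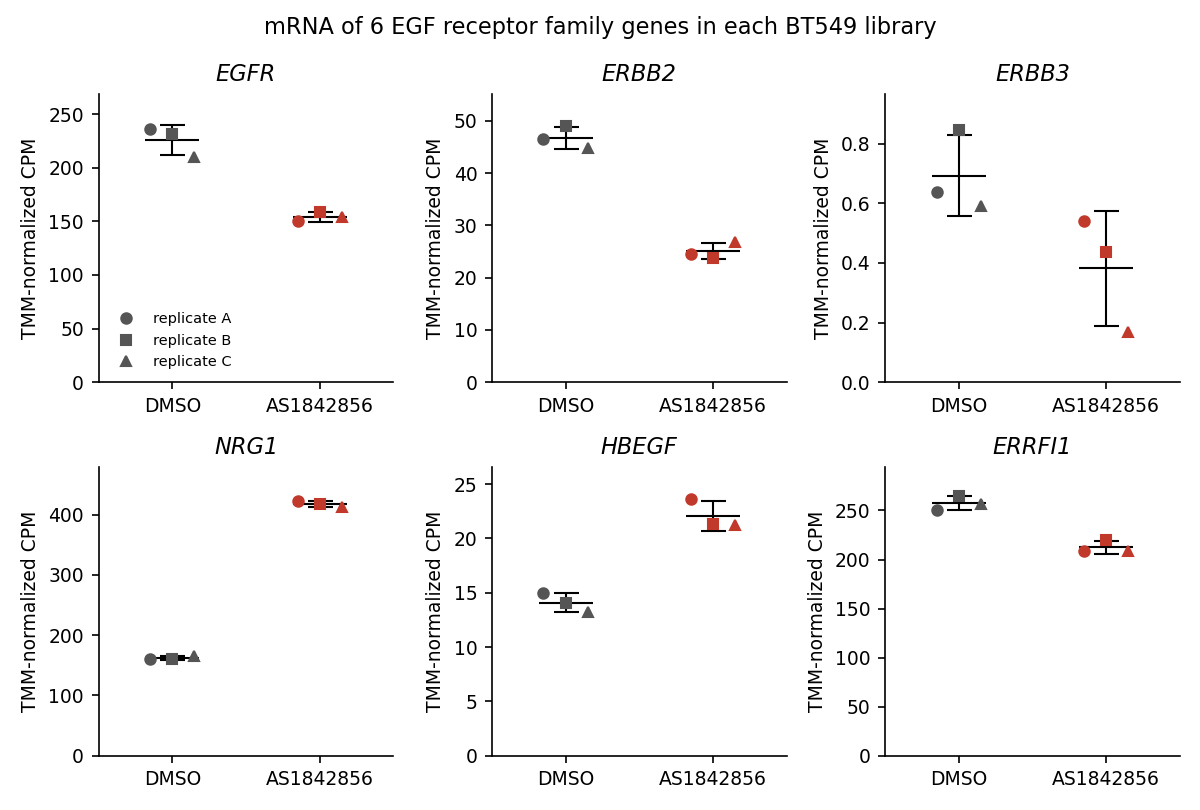
TMM-normalized CPM (linear axes from 0) of the 6 tested genes in each library, with DMSO in grey, AS1842856 in red, a symbol for each replicate letter, and the mean ± SD as bar and whiskers. NRG1 lay between 160 and 166 CPM in DMSO and between 413 and 422 CPM with AS1842856, and the groups did not overlap in any of the 6 panels.

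Among the receptors, EGFR (ENSG00000146648, chromosome 7 from 55019021 to 55211628, GRCh38) had 236, 232 and 210 CPM in the DMSO libraries A, B and C. It had 150, 159 and 154 CPM in the AS1842856 libraries. Every treated library lay below every control library, and the treated libraries varied less among themselves than the controls. The log2FC was -0.55 (SE 0.04, adjusted p = 6.20e-32, edgeR), a 1.47-fold decrease. The size of this change exceeded that of 75.8% of the genes tested. An antisense gene within the locus, EGFR-AS1, held 9 counts over the 6 libraries against 21516 for EGFR.

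ERBB2 (ENSG00000141736, chromosome 17 from 39687914 to 39730426), which encodes HER2, had 46.5, 49.0 and 44.8 CPM in DMSO. It had 24.5, 23.8 and 26.7 CPM with AS1842856. The groups were well separated, and ERBB2 fell further than EGFR, with a log2FC of -0.90 (SE 0.07, adjusted p = 2.92e-29, edgeR), a 1.87-fold decrease. The 95% confidence intervals, -0.63 to -0.48 for EGFR and -1.04 to -0.77 for ERBB2, did not overlap, though the difference between these genes was not itself tested. ERBB2 shares 571 exon bases with MIEN1 of the opposite strand. MIEN1 held 44.6% as many counts, and the use of strand in counting is not stated. MIEN1 had 14.2 ± 1.15 CPM in DMSO and 17.9 ± 2.63 CPM with AS1842856 (SD over 3 libraries), a log2FC of 0.33 (adjusted p = 0.00247, edgeR), opposite in direction to ERBB2. PGAP3, which also overlaps ERBB2 on the opposite strand and held 18.3% as many counts, had an adjusted p of 0.855.

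ERBB3 (ENSG00000065361, chromosome 12 from 56076799 to 56103505), the kinase-poor receptor for NRG1, was barely detected. It had 14, 13 and 11 counts in DMSO and 9, 10 and 3 counts with AS1842856. The treated libraries lay below the controls after scaling, yet the log2FC of -0.82 was uncertain (SE 0.49, 95% confidence interval -1.79 to 0.14, adjusted p = 0.145, edgeR). ERBB4, the other receptor for NRG1, was not tested, with 6, 7 and 0 counts in DMSO and 1, 0 and 3 with AS1842856. No change was detected in ERBB3, whose interval leaves room for a large decrease or a small increase.

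Among the ligands, NRG1 (neuregulin 1, ENSG00000157168, chromosome 8 from 31639386 to 32767959) showed the largest change of the 6 tested genes. It had 160, 160 and 166 CPM in DMSO and 422, 418 and 413 CPM with AS1842856. The treated libraries were close to each other and far above the controls, with a log2FC of 1.37 (SE 0.04, adjusted p = 1.70e-100, edgeR), a 2.58-fold increase. This exceeded the size of change of 93.8% of the genes tested. Genes nested within the locus had at most 2 counts over all 6 libraries.

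HBEGF (heparin-binding EGF-like growth factor, ENSG00000113070, chromosome 5 from 140332843 to 140346631) had 14.985, 14.1 and 13.2 CPM in DMSO. It had 23.6, 21.3 and 21.2 CPM with AS1842856. All treated libraries were above all controls, and the log2FC was 0.64 (SE 0.09, adjusted p = 3.01e-10, edgeR), a 1.56-fold increase. No annotated gene overlaps HBEGF.

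The other EGFR ligands were at the edge of detection. AREG (amphiregulin) had 2, 0 and 1 counts in DMSO and 0, 1 and 2 with AS1842856. EREG (epiregulin) had 0, 1 and 0 counts in DMSO and 0, 2 and 0 with AS1842856. BTC (betacellulin) had 1, 2 and 5 counts in DMSO and 0, 4 and 0 with AS1842856. TGFA (transforming growth factor alpha) had 0 counts in all 6 libraries, where 3 counts, the limit that a count of 0 allows, correspond to 0.131 to 0.195 CPM by library. No fold change was computed for these 4 genes. They were not called when all genes with a count were tested either, with adjusted p from 0.556 (BTC) to 1 (AREG) for the 3 with counts (edgeR). These limits cover counting error only.

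AREG, EREG and BTC share a position that the choice of genes did not use. With EPGN, a further EGFR ligand, they are the only protein coding genes between 74308473 and 74794686 on chromosome 4. The 4 genes held 25 counts over the 6 libraries, and the 2 antisense genes between them held 0. On the side of EPGN, the neighbouring gene MTHFD2L had 266 to 386 counts in each library, and on the side of BTC, PARM1 had 0 to 3.

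Of the rest of the family, EGF, EPGN, NRG2, NRG3 and NRG4, only EGF was tested. EGF itself had 32, 20 and 23 counts in DMSO and 2, 5 and 7 with AS1842856. Every treated library was below every control, and the log2FC was -2.42 (SE 0.47, adjusted p = 1.49e-06, edgeR), at a low level of 1.33 ± 0.113 CPM in DMSO and 0.244 ± 0.138 CPM with AS1842856 (SD, n = 3 per group). EPGN had at most 1 count in any library and NRG2, NRG3 and NRG4 at most 5.

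**Figure D2:**
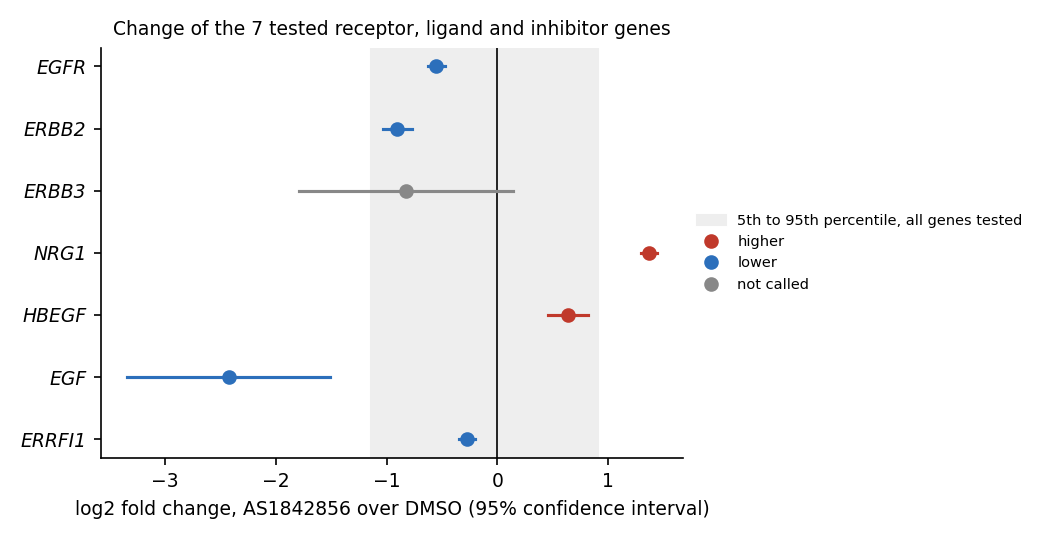
Log2FC of AS1842856 over DMSO (linear axis, points) with 95% confidence intervals (lines) for the 6 tested genes and EGF, coloured by the call at an adjusted p under 0.05, over the 5th to 95th percentile of all genes tested (grey, -1.14 to 0.91). NRG1 at 1.37 and EGF at -2.42 lie outside the grey band, and the interval of ERBB3 alone crosses 0.

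The inhibitor ERRFI1 (ENSG00000116285, chromosome 1 from 8004404 to 8026308) had 251, 265 and 257 CPM in DMSO. It had 209, 220 and 208 CPM with AS1842856. The groups did not overlap, but the decrease was the smallest of the 5 called genes, with a log2FC of -0.28 (SE 0.04, adjusted p = 1.35e-11, edgeR), 1.21-fold. Its size was near the middle of all genes tested, above 51.6% of them. The antisense gene AL034417.4, which overlaps one end, held 0.233% as many counts.

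To compare levels between genes, the deposited FPKM values were used, which scale counts by gene length and library size. In the DMSO libraries, ERRFI1 was highest with 61.1 ± 1.54 FPKM, followed by EGFR with 17.9 ± 1.11, NRG1 with 14.2 ± 0.286, HBEGF with 4.64 ± 0.290 and ERBB2 with 4.501 ± 0.197 (SD, n = 3). HBEGF and ERBB2 did not differ beyond their spread, whereas the other neighbours in this order did. With AS1842856 the order was ERRFI1 with 50.4 ± 1.60 FPKM, NRG1 with 36.7 ± 0.460, EGFR with 12.2 ± 0.349, HBEGF with 7.26 ± 0.464 and ERBB2 with 2.41 ± 0.145, each separated from the next by more than the spread. NRG1 thus passed from below EGFR to above it, and HBEGF from level with ERBB2 to above it. ERBB3 stood at 0.0761 ± 0.0148 FPKM in DMSO and 0.0420 ± 0.0212 with AS1842856, a mean level above that of only 0.370% of the genes tested. The remaining ligands had at most 0.237 FPKM in any library, the highest value being that of EGF.

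The ratio of NRG1 to EGFR in FPKM was 0.747, 0.764 and 0.871 in the DMSO libraries and 3.12, 2.91 and 2.97 in the AS1842856 libraries. The ratio of HBEGF to EGFR was 0.263, 0.252 and 0.261 in DMSO and 0.655, 0.556 and 0.572 with AS1842856. Both ratios were higher in every treated library than in any control. EGF, which binds EGFR, went the other way, from 0.216 ± 0.0185 to 0.0395 ± 0.0223 FPKM (SD over 3 libraries). Summed over the 11 ligand genes of the family, ligand FPKM was 19.2 ± 0.187 in DMSO and 44.1 ± 0.817 with AS1842856, and the share of NRG1 in it was 73.8% ± 1.47 and 83.2% ± 0.610 (SD, n = 3 per group). Summed over the 4 receptor genes, FPKM was 22.5 ± 1.28 and 14.7 ± 0.314, with 79.6% ± 0.716 and 83.3% ± 0.983 from EGFR. These sums are of mRNA, and no protein was measured.

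**Figure D3:**
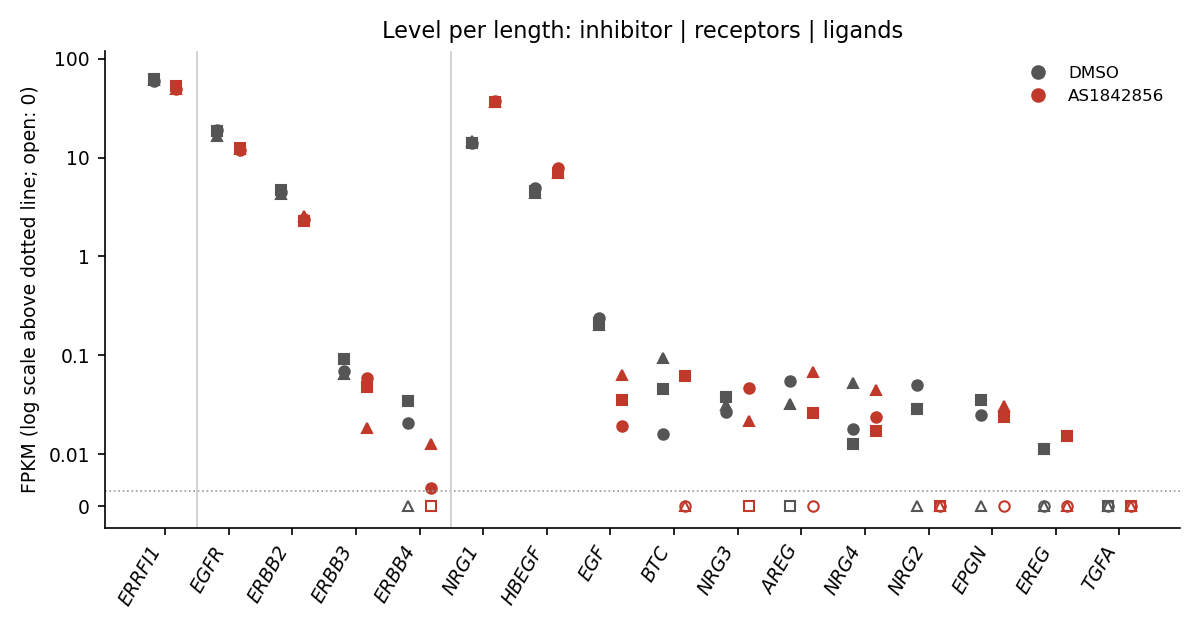
Deposited FPKM (log axis above the dotted line, 0 below it as open symbols) of the inhibitor, the 4 receptors and the 11 ligands in each library, DMSO in grey and AS1842856 in red, with a symbol for each replicate letter. ERRFI1, EGFR, ERBB2, NRG1 and HBEGF stay above 2 FPKM in all 6 libraries and every other gene stays under 0.3, and TGFA, which had no counts and no FPKM entry, is drawn at 0.

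The regions upstream of the transcription start were read for 8 of the 10 genes from RefSeq (GRCh38.p14), in windows of 250 bases before each start, 10 windows in all. Those of EGFR (its most upstream start), HBEGF and ERRFI1, 3 of the 4 changed genes with a window, are shown with that of AREG, an EGFR ligand with almost no counts. Capitals mark matches to the GC box GGGCGG, the TATA box TATAAA and the cAMP response element TGACGTCA on either strand, overlapping matches included. The windows lie at chr7:55018767-55019016 (plus strand) for EGFR, chr5:140346604-140346853 (minus strand) for HBEGF, chr1:8026310-8026559 (minus strand) for ERRFI1 and chr4:74444886-74445135 (plus strand) for AREG, and each is written 5′ to 3′ up to the base before the start.
EGFR: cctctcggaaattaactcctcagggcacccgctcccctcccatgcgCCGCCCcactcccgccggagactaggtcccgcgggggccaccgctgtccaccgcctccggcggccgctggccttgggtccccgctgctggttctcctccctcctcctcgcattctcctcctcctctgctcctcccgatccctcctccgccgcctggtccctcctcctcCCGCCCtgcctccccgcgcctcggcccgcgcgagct
HBEGF: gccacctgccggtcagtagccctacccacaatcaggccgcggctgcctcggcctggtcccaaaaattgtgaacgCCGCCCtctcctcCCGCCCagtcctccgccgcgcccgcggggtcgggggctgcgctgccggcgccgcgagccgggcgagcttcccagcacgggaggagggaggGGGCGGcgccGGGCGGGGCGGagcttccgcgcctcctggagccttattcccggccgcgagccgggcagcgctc
ERRFI1: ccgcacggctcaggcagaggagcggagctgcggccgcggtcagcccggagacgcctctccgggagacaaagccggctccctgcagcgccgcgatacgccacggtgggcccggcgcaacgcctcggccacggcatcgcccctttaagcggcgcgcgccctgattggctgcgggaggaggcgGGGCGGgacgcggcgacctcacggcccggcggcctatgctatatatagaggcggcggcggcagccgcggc
AREG: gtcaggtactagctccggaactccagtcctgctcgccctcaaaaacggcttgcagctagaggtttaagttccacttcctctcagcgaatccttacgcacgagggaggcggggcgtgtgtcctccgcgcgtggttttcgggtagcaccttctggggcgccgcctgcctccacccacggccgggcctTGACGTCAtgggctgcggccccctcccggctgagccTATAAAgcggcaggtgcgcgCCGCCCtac

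The GC content was 73.6% in the EGFR window shown, 76.4% for HBEGF and 75.2% for ERRFI1, against a median of 58.0% over 35116 windows. GC boxes occurred 2, 5 and 1 times in them, and 42.6% of all windows held at least 1. Neither feature separated changed genes from genes without counts. The window of ERBB2, which also changed, had 65.6% GC and 0 GC boxes. Of the 2 windows of TGFA, which had no counts, 1 had 75.6% GC and 3 GC boxes. TATAAA, which 10.7% of all windows held, was in none of the EGFR, HBEGF and ERRFI1 windows shown. Only these exact letters were searched, so the run tatatata near the end of the ERRFI1 window was neither marked nor counted. A second RefSeq start within EGFR, at 38.8% GC, held TATAAA 146 and 36 bases upstream. The AREG window held TATAAA 29 bases and TGACGTCA 65 bases upstream of the start, the latter in 1.65% of all windows. TATAAA was also in the window of EREG, 32 bases upstream. The forkhead motif TGTTTAC, found in 2.98% of all windows, was present in 1 of the 10, that of BTC, 231 bases upstream. The AP-1 motif TGANTCA, found in 6.57% of windows, occurred in that of ERBB2 and, with 2 matches, at the second EGFR start. A match is a description of the sequence, and windows without one say nothing about regulation from elsewhere.

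Genes around the receptors were taken from 6 lists of 113 genes, of which 106 were tested, 47 were higher and 38 lower, with a median log2FC of 0.07 against 0.00 for all genes tested. The 85 called genes were 80.2% of those tested, beside the background of 56.0% (27.6% higher and 28.4% lower). By list, the share called was 88.9% for shedding and trafficking, 73.3% for endocytosis and inhibitors, 78.9% for adaptors, 70% for the RAS/ERK and PI3K/AKT core and 94.4% for ERK-induced output genes, and these lists were written with results of these data known. Of 19 genes for shedding and trafficking of ligands, 18 were tested, 4 rose and 12 fell, and the median was -0.22. ADAM17, the main protease that releases HBEGF, AREG and TGFA, fell from 45.9 ± 1.43 to 34.8 ± 0.616 CPM, a log2FC of -0.40, whereas ADAM10, the main protease for EGF and BTC, had a log2FC of -0.07 (adjusted p = 0.192, edgeR). ADAM19, a protease known to act on neuregulin, rose most, from 297 ± 8.57 to 564 ± 7.13 CPM, a log2FC of 0.93. TMED2 and FRMD8 rose by 0.33 and 0.30 on the log2 scale, FRMD8 being a partner of the iRhoms that carry ADAM17 to the cell surface. The falls were led by TIMP3, an inhibitor of ADAM17, with a log2FC of -1.51, the tetraspanin CD9 with -1.17 and the sorting receptor SORT1 with -1.16. The iRhom gene RHBDF1 had a log2FC of -0.81 and RHBDF2 one of 0.12 (adjusted p = 1.64e-15 and 0.353, edgeR).

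The list of receptor endocytosis, ubiquitination and other inhibitors held 30 genes, all tested, with 15 higher and 7 lower and a median log2FC of 0.11. Most of these changes were small, but PTPRJ and LRIG1 fell strongly. PTPRJ, a receptor phosphatase that dephosphorylates EGFR, had 160, 142 and 149 CPM in DMSO and 31.4, 31.4 and 32.4 CPM with AS1842856, a log2FC of -2.25 (SE 0.05, adjusted p = 4.24e-116, edgeR). LRIG1, a membrane protein that promotes degradation of the family's receptors, had 39.1, 39.3 and 41.9 CPM in DMSO and 8.94, 9.20 and 8.19 CPM with AS1842856, a log2FC of -2.19 (SE 0.09, adjusted p = 5.40e-67, edgeR). LRIG1 overlaps SLC25A26 on the opposite strand, and that gene held 50.02% as many counts. This overlap is of whole gene spans, and whether exons are shared was not determined. The phosphatase PTPN12 was also lower, with a log2FC of -0.22. Among the genes that were higher were SOCS4 by 0.62, the clathrin adaptor subunit AP2M1 by 0.43, the phosphatase PTPRK by 0.43, and the ubiquitin ligases CBL by 0.18 and CBLB by 0.36 on the log2 scale. The third largest fall in the list was that of RAB11FIP1, a recycling factor, with a log2FC of -0.76.

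Of 19 adaptors and other proteins that bind the active receptors, all were tested, 7 were higher and 8 lower, with a median log2FC of -0.08. The adaptor GRB2 rose by 0.13 on the log2 scale and its partner SHC1 fell from 720 ± 5.25 to 476 ± 11.99 CPM, a log2FC of -0.60. Among genes with a mean of at least 1 CPM, the largest falls were in STAT5A, from 2.48 ± 0.339 to 0.257 ± 0.116 CPM, in RASA1, a RAS GTPase-activating protein, from 164 ± 6.01 to 62.0 ± 1.19 CPM, and in STAT3, from 293 ± 8.58 to 159 ± 2.67 CPM (SD over 3 libraries). Their log2FC values were -3.30, -1.40 and -0.88, and VAV3, below that level with 0.834 ± 0.129 CPM in DMSO and 0.259 ± 0.147 CPM with AS1842856, had a log2FC of -1.74. RASA1 overlaps CCNH on the opposite strand, and that gene held 28.99% as many counts. The largest rises were those of NCK2 with 0.50, PLCG1 with 0.34 and CRK with 0.33, and PLCG1 overlaps ZHX3, which held 20.4% as many counts. The overlaps of RASA1 and PLCG1 are also of whole gene spans, with exon sharing not determined.

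The RAS/ERK and PI3K/AKT core held 21 genes, of which 20 were tested, 8 were higher and 6 lower, with a median log2FC of 0.02. The changes of 2 PI3K subunits stood apart in size. PIK3R1, a regulatory subunit, rose from 160 ± 0.782 to 337 ± 8.61 CPM, and PIK3CB, a catalytic subunit, fell from 54.9 ± 0.330 to 16.8 ± 1.56 CPM (SD over 3 libraries). Their log2FC values were 1.08 and -1.71. NRAS rose by 0.23 on the log2 scale, and the next largest falls were those of MAPK3 with -0.58 and AKT2 with -0.33.

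The 18 genes known as outputs of ERK signaling were all tested, with 13 higher and 4 lower. Among the lists of genes around the receptors with more than 1 gene tested, their median log2FC of 0.67 was the highest. IER3, an early response gene, had 59.0, 60.9 and 63.7 CPM in DMSO and 240, 230 and 279 CPM with AS1842856, a log2FC of 2.03 (SE 0.05, adjusted p = 4.91e-27, edgeR). PHLDA1 rose by 1.70 and SPRY4, a feedback inhibitor of receptor tyrosine kinase signaling, by 1.66 on the log2 scale. The feedback phosphatases DUSP4, DUSP5 and DUSP6 rose by 1.42, 0.28 and 0.50, SPRY1 and SPRY2 by 0.68 and 0.70, and the ETS factors ETV1, ETV4 and ETV5 by 1.5, 0.96 and 0.22. The 4 lower genes were the ephrin receptors EPHA4 and EPHA2, with log2FC values of -3.30 and -1.44, SPRED3 with -0.50 and FOSL1 with -0.42. Several genes of this list respond to other signals as well. Whether ERK activity differed between the groups was not measured.

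**Figure D4:**
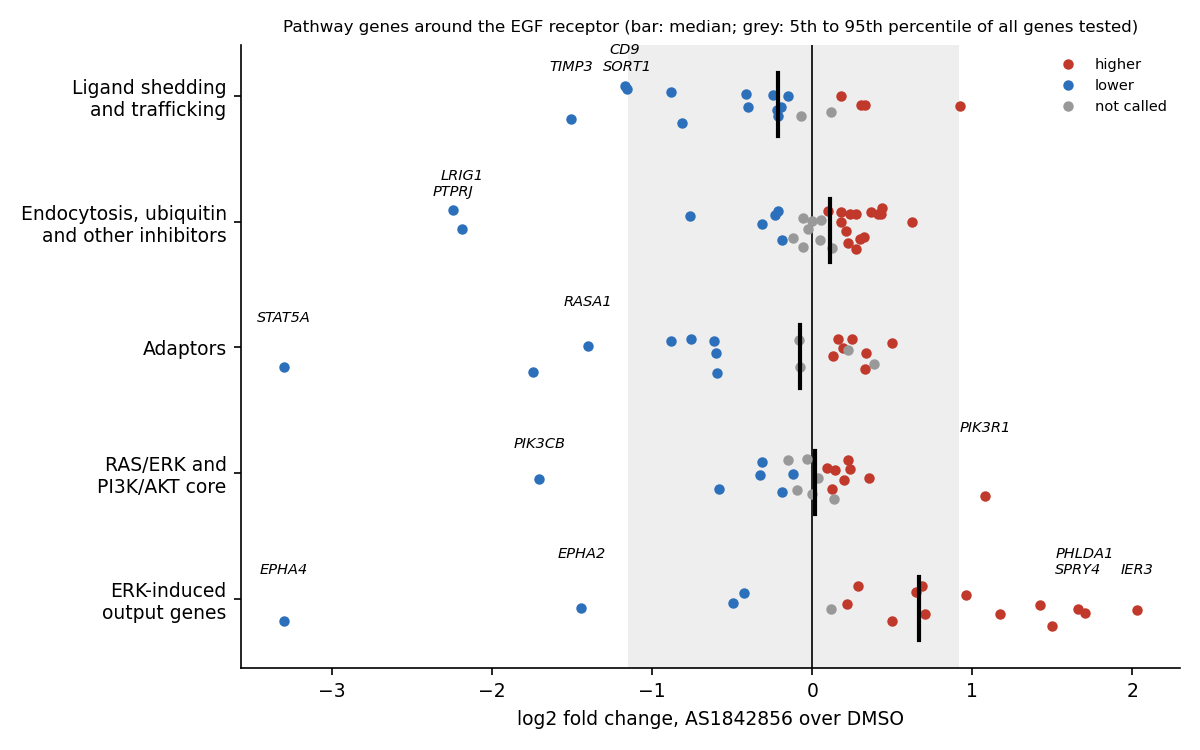
Log2FC of AS1842856 over DMSO (linear axis) for each tested gene of 5 lists (points, red higher, blue lower, grey not called at an adjusted p under 0.05), with the list median as a black bar and the 5th to 95th percentile of all genes tested in grey, and with the names of the leading genes that changed by at least 1. The ERK-induced output genes have a median of 0.67, while the other medians lie between -0.22 and 0.11.

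The genes whose level and change were most like those of EGFR over the 6 libraries were DAG1, TUBB6 and PLIN3, with root mean square distances of 0.07 each in log2 CPM. For HBEGF they were PLCD3, MEX3B and ZNF8, with distances of 0.10, 0.12 and 0.13. These distances describe 6 libraries of 2 groups and carry no test.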

How the data were processed

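Per the labels and the study's methods, total RNA was made into Illumina libraries and reads were mapped with STAR. The submitters' processing notes name CASAVA, Bowtie 0.12.2 and GRCh38. The authors deposited raw counts per gene and, for each library, FPKM values (25015 genes). The counting tool and the use of strand are not given in the sources used here. All gene identifiers matched GENCODE release 29 (GRCh38), which gave symbols, positions and overlaps.

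The main test was the quasi-likelihood F-test of edgeR 4.0.16 (R 4.3.3), fitted robustly and without a block after filterByExpr (minimum count 10, minimum total 15) and TMM. Adjustment followed Benjamini-Hochberg, with a threshold of 0.05. The standard error was the log2 fold change divided by the square root of F. The common biological coefficient of variation was 0.0374. FPKM was used for levels between genes and in limma 3.58.1. Alternatives, including DESeq2 1.42.0, are given with their effect at the end. In simulated counts, edgeR recovered 86.6% of 67 genes changed 1.5-fold and 95.5% of 67 changed 2-fold among 14312 tested, with 6% false calls. The simulation gave every gene the same dispersion and changed only genes above a minimum mean count. Far fewer genes changed in it than the 56.0% called in the real data. These rates therefore need not hold for the real comparison, or for genes with few counts such as ERBB3.

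The 10 genes and all lists were chosen with earlier results of these data known. All 10 were named, and of other lists up to 3 largest rises and falls among called genes with a mean of at least 1 CPM, all genes of the short list of further family members, overlapping genes and the 3 genes most like EGFR and HBEGF. Others (ADAM17, ADAM10, RHBDF1, RHBDF2, CBL, CBLB, PTPN12, GRB2, SHC1, VAV3, FOSL1, single marker genes and the DUSP, SPRY and ETV genes) were named after their values were seen. A few genes of the lists are counted but not reported by name here. Replicates of a group differed by more than sampling noise (chi-square per degree of freedom 2.32 to 3.12).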

Additional observations from a re-analysis of the deposited data

How the results depend on the processing

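The 5 called genes of the family were called, 2 higher and 3 lower, under all 15 alternatives: DESeq2, edgeR with DESeq2's size factors or scaled by totals only, edgeR on unfiltered genes or on those averaging 50 counts or more, the replicate block, limma on log2(FPKM + 1), on log2(FPKM + 0.1) and with no filter, and each of the 6 libraries left out. Across the 6 fits without 1 library the log2 fold change ran from -0.61 to -0.52 for EGFR, -0.95 to -0.86 for ERBB2, 0.59 to 0.69 for HBEGF, 1.35 to 1.38 for NRG1 and -0.30 to -0.26 for ERRFI1. ERBB3 was not called in any of the 12 fits that tested it (-1.10 to -0.05, adjusted p from 0.113 to 0.468). The count of all called genes was 8029 and ran from 6523 to 8030, and that of other pathway genes was 85 and ran from 74 to 85. On the log2(FPKM + 1) scale, where the pseudocount shrinks low genes, EGF changed by -0.23 and STAT5A by -0.45. TIMP3 changed by -0.72, RAB11FIP1 by -0.29 and EPHA4 by -2.18 on that scale. All 546 values of 37 genes under the alternatives (the 6 tested family genes, EGF and 30 pathway genes with the largest changes of their lists) kept the direction and side of the threshold, those with other scalings included, though none of these scalings can show a shift common to all genes. Same-lettered replicates did not deviate together (correlations of 0.0260, -0.0105 and -0.0128 for A, B and C), and with the replicate block 7862 genes, 5 of the family and 84 other pathway genes were called. For the 6 tested family genes, FPKM and CPM per kilobase of exon gave levels within 1 SD of each other. ERBB3, ERBB4, AREG, EREG, TGFA and BTC had at most 14 counts in any library, which limits what can be said of them. Whether more depth would detect the lowest of them better was not tested.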
